A study of Mus musculus with 11 samples.

Results

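The genes described here belong to the transforming growth factor beta (TGF-beta) and bone morphogenetic protein (BMP) pathway. They are the ligand genes Tgfb1, Tgfb2, Tgfb3, Bmp4 and Inhba, the latency gene Ltbp1, the receptor genes Tgfbr1 and Tgfbr2, the inhibitor gene Smad7 and the target gene Tgfbi. Members were all probe sets whose only platform gene symbol was one of these 10 names, which gave 19 of the 22626 probe sets on the array. Of the 19, 15 passed the filter on low signals and were tested, and each of the 10 genes kept at least 1 tested probe set. Every member is accounted for below, including the 4 dim probe sets that were not tested.

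Expression was read on 11 Affymetrix arrays of laser-dissected adventitia, the outer connective tissue coat of the artery, from the abdominal aorta of male mice 78 weeks old on normal chow. Of these, 4 came from Apoe-deficient mice (B6.129P2-Apoe<tm1Unc>/J) within the atherosclerotic lesion area, where the adventitia held artery tertiary lymphoid organs (ATLO, lymphocyte aggregates beside the diseased artery). Another 4 were of the same strain beyond the lesion area. The remaining 3, from C57BL wild-type mice, have titles that also carry the unexplained letters PNS. Each Apoe-deficient array pooled 200 sections of 10 micrometres. The Apoe-deficient strain carries a germline loss of Apoe in all cells, the series' design text calls the outside-lesion arrays mice without lesions, and no label ties an array to an animal. P-values therefore reflect only how much these arrays vary, and that variation may be technical. Wild-type RNA was extracted with another kit and amplified for 24 h instead of 68 h, so genotype and protocol cannot be told apart in either comparison with wild type. All 3 comparisons share arrays, so a low or high value in 1 group enters a pair of them.

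TGF-beta is secreted in a latent form, bound to matrix through latent TGF-beta binding proteins such as the product of Ltbp1, and integrins with the alpha v chain can release it. The free ligand binds the type II receptor Tgfbr2, which recruits and activates the type I receptor Tgfbr1, and this phosphorylates Smad2 and Smad3. BMP ligands use other receptors, among them Bmpr1a, and act through Smad1 and Smad5, with the Id genes and the inhibitor Smad6 among their common targets. In the artery wall the pathway is known for its part in smooth muscle differentiation and in matrix production by adventitial fibroblasts.

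The promoters of Tgfbr1, Tgfbr2 and Bmp4 are shown because these members had a call that held under every alternative tried, the receptor genes higher in ATLO than outside the lesion and Bmp4 lower in ATLO than in wild type. RefSeq windows were found for 8 of the 10 genes, on mouse build GRCm38.p6, with 250 bases before the start site and 50 after it. Capitals mark the GC box GGGCGG, the CCAAT box CCAAT, the Smad element CAGAC and the TATA box TATAAA, searched on both strands, and none of the marked matches overlap. The Tgfbr1 window lies at chr4:47352972-47353271 on the plus strand, that of Tgfbr2 at chr9:116175314-116175613 on the minus strand and that of Bmp4 at chr14:46390620-46390919 on the minus strand.
Tgfbr1: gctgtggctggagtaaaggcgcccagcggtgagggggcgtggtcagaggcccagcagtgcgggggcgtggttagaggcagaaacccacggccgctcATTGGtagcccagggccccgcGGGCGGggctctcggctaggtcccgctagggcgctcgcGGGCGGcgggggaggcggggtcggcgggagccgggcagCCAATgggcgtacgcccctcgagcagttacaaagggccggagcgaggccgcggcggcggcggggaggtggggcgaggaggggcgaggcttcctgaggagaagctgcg
Tgfbr2: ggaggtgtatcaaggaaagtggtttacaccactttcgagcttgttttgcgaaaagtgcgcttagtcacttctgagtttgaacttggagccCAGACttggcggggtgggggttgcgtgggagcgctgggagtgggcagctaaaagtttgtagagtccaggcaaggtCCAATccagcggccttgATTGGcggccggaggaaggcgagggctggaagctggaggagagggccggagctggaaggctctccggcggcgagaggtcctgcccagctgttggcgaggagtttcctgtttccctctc
Bmp4: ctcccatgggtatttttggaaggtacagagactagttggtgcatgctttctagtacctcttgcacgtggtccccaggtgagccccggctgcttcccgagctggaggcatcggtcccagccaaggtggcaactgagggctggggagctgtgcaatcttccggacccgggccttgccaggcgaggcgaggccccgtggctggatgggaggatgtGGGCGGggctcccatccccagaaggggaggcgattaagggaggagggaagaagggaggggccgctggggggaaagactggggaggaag

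Both receptor promoters held 2 CCAAT boxes, and the Bmp4 window held 0. A CCAAT box was present in 37.4% of the 32851 windows of this length. The GC box stood in the Tgfbr1 window 2 times and in the Bmp4 window 1 time, and in 35.7% of all windows. The Smad element was in the Tgfbr2 window alone among these 3 and in 49.6% of all windows, and the TATA box was in none of the 3 and in 13.6% of all. These are matches of letters and say nothing of factor binding.

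All 11 arrays matched their genotype by Apoe, which was read at signals between 86.9 and 150.2 in ATLO, between 45.9 and 179.7 outside the lesion and between 11969.4 and 13164.3 in wild type. Signal here is the deposited intensity, already scaled so that every array had a trimmed mean near 500.2. Of the fibroblast markers, which define the labelled tissue, all 6 were measured, none at the floor on every array. Col1a1, a collagen of fibroblasts, averaged 4324 ± 2629 in ATLO, 1123 ± 876 outside the lesion and 925 ± 136 in wild type (SD, n = 4, 4 and 3). Smooth muscle markers were also read on all arrays, although adventitia lies outside the muscle layer. Acta2, smooth muscle actin, averaged 14591 ± 5934 in ATLO, 23112 ± 10818 outside the lesion and 21297 ± 1250 in wild type.

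Both receptor genes were higher in ATLO than in outside-lesion adventitia. Tgfbr1, read by probe set 1420895_at, had signals of 1812.1, 2348.9, 1607.9 and 1563.1 in ATLO, against 786.5, 861.6, 750.3 and 864.9 outside the lesion and 964.5, 1096.4 and 1035.5 in wild type. Every ATLO array lay above every other array, and every outside-lesion array lay below every wild-type array. Tgfbr1 was 2.22-fold higher in ATLO than in outside-lesion adventitia, at a log2 change of 1.15 ± 0.15 (adjusted p = 7.93e-05), and 1.75-fold higher than in wild type (log2 change 0.81 ± 0.16, adjusted p = 0.00272). The ± of a log2 change is its standard error, and adjusted p-values come from limma with Benjamini-Hochberg adjustment over 14988 probe sets. The outside-lesion difference from wild type did not pass the threshold of 0.05 (log2 change -0.34 ± 0.16, adjusted p = 0.221).

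Tgfbr2, read by 1426397_at, had signals of 3725.7, 3123.0, 4249.2 and 4035.2 in ATLO, against 2107.6, 2560.2, 2494.2 and 2368.2 outside the lesion and 2757.0, 3626.2 and 3675.6 in wild type. The ATLO arrays lay above all outside-lesion arrays and overlapped those of wild type. Within ATLO, replicate 2 had the highest Tgfbr1 and the lowest Tgfbr2. The receptor was 1.58-fold higher in ATLO than outside the lesion (log2 change 0.66 ± 0.15, adjusted p = 0.00414). Against wild type it passed neither in ATLO, with a log2 change of 0.18 ± 0.16 (adjusted p = 0.440), nor in outside-lesion adventitia, with one of -0.48 ± 0.16 (adjusted p = 0.111), although the outside-lesion arrays lay wholly below wild type. Both receptor rises against outside-lesion adventitia passed in 22 of 22 alternatives, with log2 changes between 0.91 and 1.22 for Tgfbr1 and between 0.54 and 0.78 for Tgfbr2.

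Tgfbr1 and Tgfbr2 each had another 2 probe sets that were too dim to test. Those of Tgfbr1, 1420893_a_at and 1420894_at, read between 17.3 and 64.8 in ATLO, between 11.5 and 38.5 outside the lesion and between 23.0 and 62.3 in wild type. Those of Tgfbr2, 1425444_a_at and 1422019_at, read between 12.0 and 71.6 in ATLO, between 5.6 and 49.0 outside the lesion and between 3.3 and 53.8 in wild type. These signals surround the floor of 35.1 below which values were not distinguished, so the dim probe sets neither repeat nor contradict the bright ones.

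Ltbp1, which tethers latent TGF-beta to the matrix, was lowest outside the lesion. Its signals were 671.6, 553.5, 937.5 and 732.9 in ATLO, against 568.0, 613.5, 241.9 and 347.1 outside the lesion and 759.4, 829.7 and 645.6 in wild type. The ATLO and outside-lesion ranges overlapped through ATLO replicate 2, and all outside-lesion arrays lay below wild type. The rise in ATLO over outside-lesion adventitia was 1.72-fold and near the threshold (log2 change 0.78 ± 0.27, adjusted p = 0.0397). It passed in 10 of 22 alternatives, with adjusted p between 0.00496 and 0.113. The call was lost without ATLO replicate 1 (log2 change 0.81), 3 (0.65) or 4 (0.77) and without outside-lesion replicate 3 (0.52) or 4 (0.70), each given as a log2 change. Processing also removed it, under quantile normalization (0.67), equal array medians (0.66), no filter, the replicate block and no intensity trend. The actin ratio as a covariate and a fit of only the compared groups removed it as well. Outside-lesion adventitia against wild type did not pass (log2 change -0.84 ± 0.29, adjusted p = 0.121).

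Of the 15 tested member probe sets, 3 were called in ATLO against outside-lesion adventitia, those of Tgfbr1, Tgfbr2 and Ltbp1. All 3 were higher in ATLO. Among all probe sets tested, 31.9% were called in this comparison, 17.9% as higher and 13.9% as lower, so the members' share was not above that of the array. Groups did not overlap for 2 of the 15, Tgfbr1 and Tgfbr2, and for 30.4% of all tested probe sets. Without outside-lesion replicate 1 the count was 6, the added ones being 3 probe sets of Tgfbi.

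**Figure D1:**
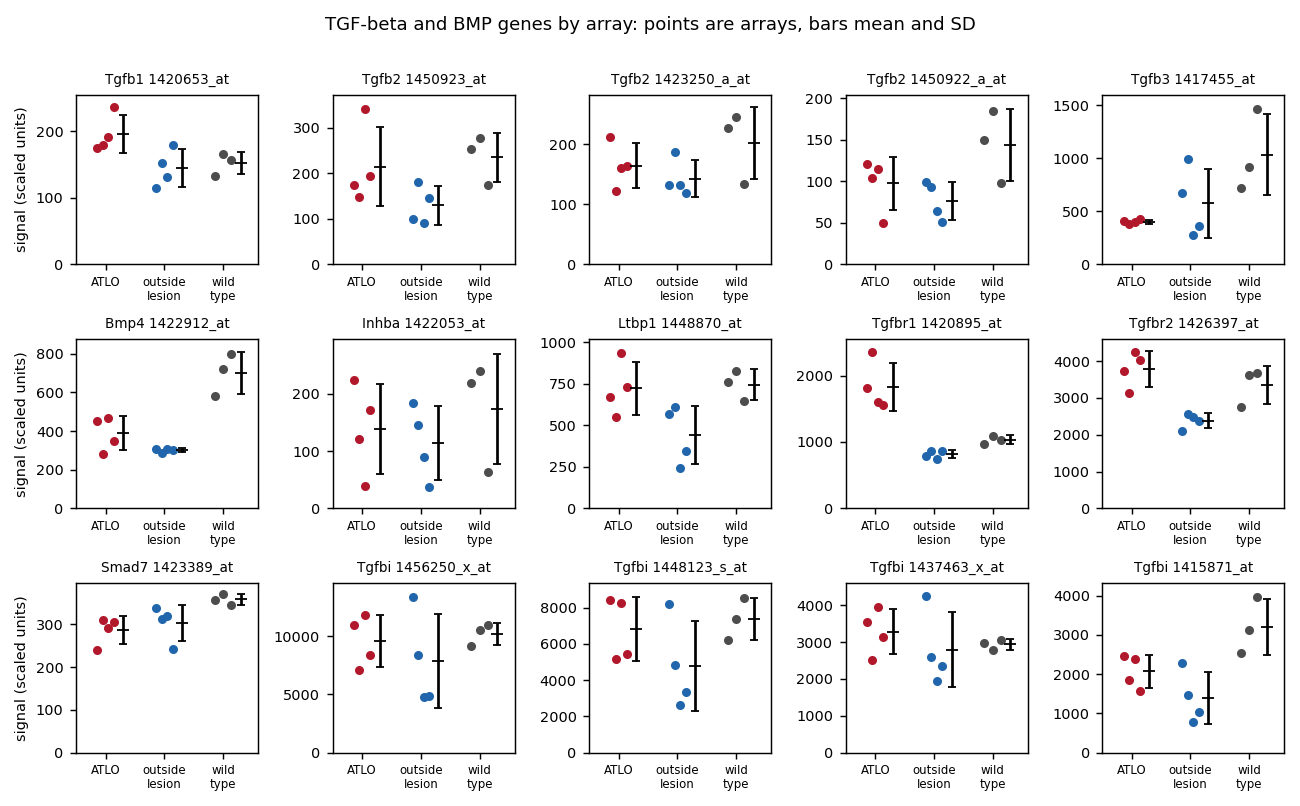
Signal (scaled units, linear axis from 0) of each of the 15 tested member probe sets on every array, in ATLO (red, n = 4), outside-lesion (blue, n = 4) and wild-type (grey, n = 3) adventitia, with mean and SD as bars. Tgfbr1 separates ATLO from both other groups, and Bmp4 separates wild type from both Apoe-deficient groups.

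Among the ligands, Bmp4, a growth factor that signals through BMP receptors, was lower in both Apoe-deficient groups than in wild type. Its signals were 454.0, 282.5, 465.2 and 349.1 in ATLO and 306.6, 286.7, 309.2 and 303.5 outside the lesion, against 583.4, 719.3 and 797.1 in wild type. No array of either Apoe-deficient group reached the lowest wild-type array, and the outside-lesion arrays lay between 286.7 and 309.2. Bmp4 fell to 0.547 of the wild-type level in ATLO, a log2 change of -0.87 ± 0.20 (adjusted p = 0.00602), and to 0.434 of it in outside-lesion adventitia, a log2 change of -1.20 ± 0.20 (adjusted p = 0.0148). The fall in ATLO passed in 22 of 22 alternatives. The fall outside the lesion passed in 20 and was lost without wild-type replicate 2 (log2 change -1.18, adjusted p = 0.0628) or 3 (log2 change -1.10, adjusted p = 0.0640), over a range of adjusted p from 0.00349 to 0.0640. ATLO against outside-lesion adventitia did not pass (log2 change 0.33 ± 0.18, adjusted p = 0.182), and passed only with the actin ratio as a covariate among the 22 alternatives (log2 change 0.64, adjusted p = 0.0440, range 0.0440 to 0.464).

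Tgfb3, one of the TGF-beta isoforms, was lower in ATLO than in wild type and varied widely outside the lesion. Its signals were 408.5, 379.7, 397.4 and 422.8 in ATLO and 673.2, 991.9, 273.6 and 362.5 outside the lesion, against 718.5, 921.9 and 1461.9 in wild type. The ATLO arrays lay close together and below wild type, whereas the outside-lesion arrays fell on both sides of ATLO. Tgfb3 fell to 0.406 of the wild-type level in ATLO (log2 change -1.30 ± 0.36, adjusted p = 0.0188). Without wild-type replicate 3, the highest array, the fall did not pass (log2 change -1.02, adjusted p = 0.0937), nor without the filter on low signals (adjusted p = 0.0678), among alternatives between 0.00273 and 0.0937. Outside-lesion adventitia against wild type did not pass (log2 change -0.96 ± 0.36, adjusted p = 0.149) and passed without outside-lesion replicate 2 (log2 change -1.29, adjusted p = 0.0330, range 0.0309 to 0.375). The 2 Apoe-deficient groups did not differ beyond their spread (log2 change -0.34 ± 0.34, adjusted p = 0.486).

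Tgfb1, the isoform most linked to immune cells and fibrosis, was not called in any comparison. It was read at 174.4, 179.3, 191.1 and 236.3 in ATLO, at 115.1, 152.7, 130.9 and 179.8 outside the lesion and at 133.1, 164.9 and 156.4 in wild type. All ATLO arrays lay above all wild-type arrays, but 1 outside-lesion array reached into the ATLO range. The log2 changes were 0.44 ± 0.21 for ATLO against outside-lesion (adjusted p = 0.131), 0.36 ± 0.23 for ATLO against wild type (adjusted p = 0.259) and -0.08 ± 0.23 for outside-lesion against wild type (adjusted p = 0.860).

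Tgfb2, another TGF-beta isoform, had 3 tested probe sets, and none was called. Probe set 1450923_at read 175.4, 147.6, 342.5 and 194.6 in ATLO, 100.2, 181.3, 90.1 and 146.7 outside the lesion and 253.4, 278.6 and 174.3 in wild type. Its outside-lesion arrays overlapped both other groups. ATLO exceeded outside-lesion adventitia by a log2 change of 0.71 ± 0.31 on this probe set (adjusted p = 0.0932), which passed only without outside-lesion replicate 2 (log2 change 0.89, adjusted p = 0.0468, range 0.0468 to 0.263). The other 2 probe sets gave log2 changes of 0.20 and 0.32 for ATLO against outside-lesion. All 3 were negative for outside-lesion against wild type, at -0.89, -0.48 and -0.91 on the log2 scale (adjusted p between 0.142 and 0.328).

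Inhba, which encodes the subunit of activin A, was the least steady member. Its signals ran from 39.8 to 223.7 in ATLO, from 37.7 to 184.5 outside the lesion and from 63.2 to 239.0 in wild type, so all groups overlapped. Its log2 changes were 0.26 ± 0.61, -0.35 ± 0.66 and -0.61 ± 0.66 for ATLO against outside-lesion, ATLO against wild type and outside-lesion against wild type, none of which passed (adjusted p between 0.607 and 0.784).

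Smad7, the intracellular inhibitor that blocks the type I receptor and is itself induced by TGF-beta, was nearly level. It was read at 240.0, 310.0, 291.6 and 306.1 in ATLO, at 336.9, 312.3, 320.0 and 242.4 outside the lesion and at 357.9, 370.9 and 345.7 in wild type. All Apoe-deficient arrays lay below all wild-type arrays, by a small margin. The log2 changes were -0.07 ± 0.16 for ATLO against outside-lesion (adjusted p = 0.766), -0.33 ± 0.18 for ATLO against wild type (adjusted p = 0.188) and -0.25 ± 0.18 for outside-lesion against wild type (adjusted p = 0.409).

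Tgfbi, a secreted matrix protein named for its induction by TGF-beta, had 4 tested probe sets that did not all tell the same story. On 1415871_at its signals were 2466.2, 1859.3, 2381.5 and 1576.4 in ATLO and 2279.8, 1469.9, 776.9 and 1032.7 outside the lesion, against 2532.1, 3116.6 and 3955.9 in wild type. Every wild-type array lay above every Apoe-deficient array on this probe set. Outside the lesion it fell to 0.407 of the wild-type level (log2 change -1.30 ± 0.31, adjusted p = 0.0397), which passed in 8 of 22 alternatives. The call was lost without any one wild-type array (log2 change between -1.46 and -1.13), without ATLO replicate 1, 3 or 4 (each -1.30) and without outside-lesion replicate 3 (-1.06) or 4 (-1.19). Processing also removed it, under equal array medians (-1.12), no filter, the replicate block and no intensity trend. The actin ratio as a covariate and a fit of only the compared groups removed it as well. The remaining 3 probe sets, 1456250_x_at, 1448123_s_at and 1437463_x_at, gave -0.51, -0.76 and -0.14 for the same comparison and were not called (adjusted p between 0.193 and 0.758). Suffixes x and s mark probe sets that can read other transcripts as well.

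In ATLO against outside-lesion adventitia the 4 Tgfbi probe sets had log2 changes of 0.40, 0.62, 0.28 and 0.67, none of them called (adjusted p between 0.0887 and 0.364). Outside-lesion replicate 1 was the highest array of its group on all 4, at 13382.0 on 1456250_x_at where the others lay between 4752.8 and 8368.5. Without that array 3 of the 4 passed, 1456250_x_at at 0.70 (adjusted p = 0.0480), 1448123_s_at at 0.93 (adjusted p = 0.0149) and 1415871_at at 0.95 (adjusted p = 0.0115). Over all alternatives their adjusted p ranged from 0.0480 to 0.662, 0.0149 to 0.362 and 0.0115 to 0.250. The same array had the highest summed fibroblast marker signal of its group, 66873 against 24745 to 40140, and also the highest adipocyte sum, 181651. Outside-lesion replicate 3 had the lowest fibroblast sum, 24745, and the lowest Tgfbi, Ltbp1 and Tgfb3. That array also had the lowest smooth muscle sum of its group, 18559, and the highest actin 3' to 5' ratio of all arrays, 12.0. The highest Ltbp1 and Tgfb3 of the group were in replicate 2. What set these arrays apart was not tested. Against wild type, ATLO gave log2 changes of -0.12, -0.14, 0.14 and -0.63, also not called.

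Against wild type, 3 of the 15 tested probe sets were called in ATLO, Tgfbr1 as higher and Tgfb3 and Bmp4 as lower, where 26.8% of all tested probe sets were called (13.4% higher and 13.4% lower). Groups did not overlap for 6 of the 15 in that comparison, and for 38.1% of all. Outside the lesion 2 of 15 were called, Bmp4 and 1 probe set of Tgfbi, both lower, where 3.26% of all were called (1.72% as higher and 1.54% as lower). Groups did not overlap there for 6 of the 15, and for 21.5% of all. That count was 0 without wild-type replicate 2 or 3, 1 without wild-type replicate 1, ATLO replicate 1, 3 or 4 or outside-lesion replicate 3 or 4, and 3 without outside-lesion replicate 2.

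**Figure D2:**
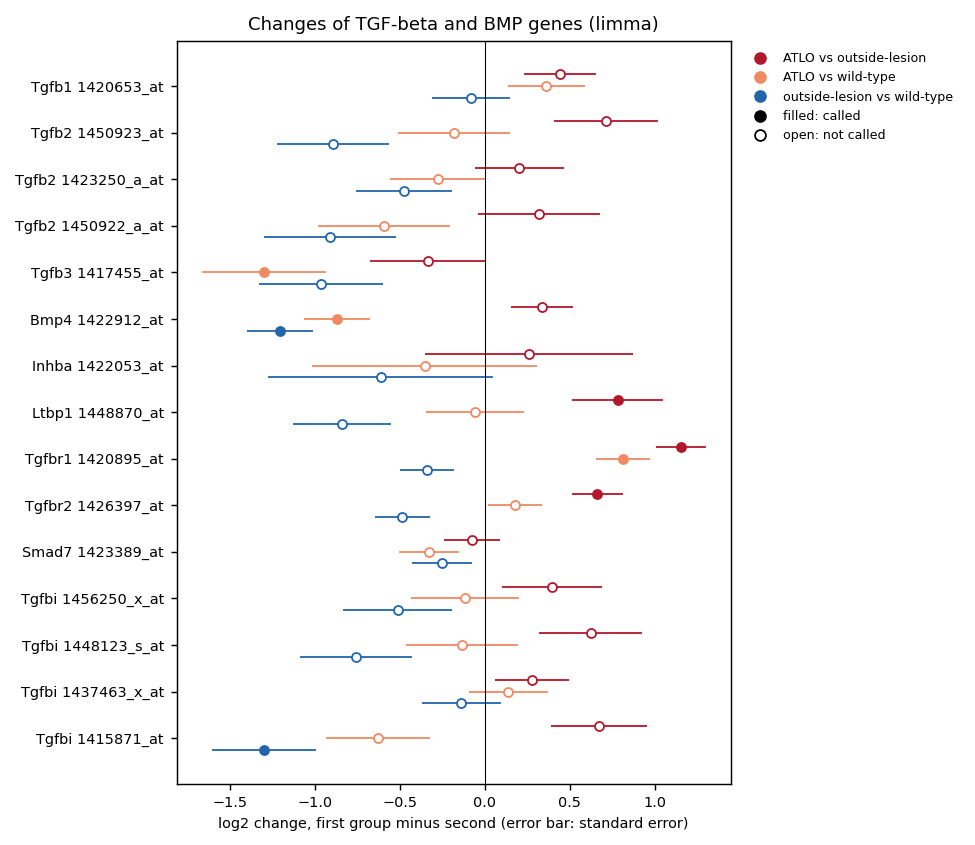
Log2 change (x axis, first group minus second, standard error as bars) of the 15 tested member probe sets in ATLO against outside-lesion, ATLO against wild type and outside-lesion against wild type. Filled points passed the limma test. The receptors and Ltbp1 are to the right in the first comparison, and Bmp4, Tgfb3 and 1 Tgfbi probe set to the left against wild type.

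**Figure D3:**
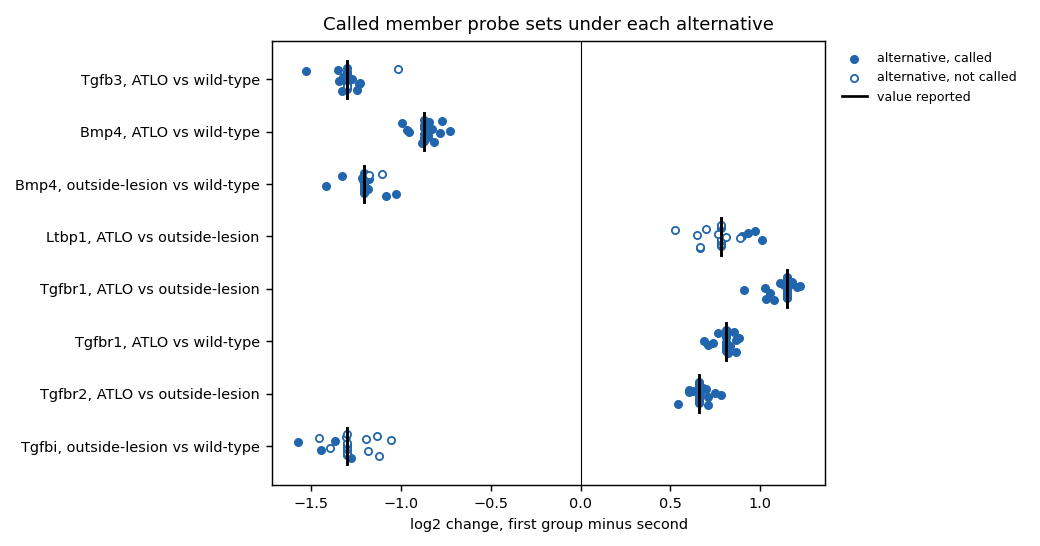
Log2 change (x axis, first group minus second) of each called member under every alternative, filled where called, with the reported value as a black line. Tgfbr1 and Tgfbr2 are filled throughout, while Ltbp1 and Tgfbi carry many open points.

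The remaining pathway was read from a list of 65 other genes, of which 43 had a tested probe set, the brightest standing for each gene. In ATLO against outside-lesion adventitia 6 of the 43 rose and 4 fell, with a median log2 change of 0.14 beside 0.11 over all 9055 genes tested. Over all genes 34.8% were called, 19.8% higher and 14.9% lower. Among latency and activation genes 2 of 5 rose (median log2 change 0.51) and among receptors 1 of 8 (0.23). None of the 4 measured Smad signal carriers, Smad1, Smad2, Smad4 and Smad5, was called (0.12), and Smad3 and Smad9 had no tested probe set. Of 5 ligands 1 fell (-0.26), and of 8 induced targets 1 rose and 1 fell (-0.20). Of 8 extracellular antagonists 1 rose and 1 fell (0.25), and of 5 intracellular inhibitors 1 rose and 1 fell (0.15).

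Ltbp2, a relative of Ltbp1 that binds microfibrils rather than latent TGF-beta, had signals of 1384.8, 1268.5, 939.9 and 1172.9 in ATLO, against 433.6, 206.0, 727.2 and 460.2 outside the lesion and 401.5, 536.1 and 375.9 in wild type. All ATLO arrays lay above all others. It rose by a log2 change of 1.50 ± 0.30 over outside-lesion adventitia (adjusted p = 0.00181) and by 1.45 ± 0.32 over wild type (adjusted p = 0.00564). The listed integrin beta genes Itgb6 and Itgb8 had no tested probe set. Itgav, the alpha v chain of integrins that can release TGF-beta from its latent form, averaged 3129 ± 283 in ATLO, 1723 ± 207 outside the lesion and 2124 ± 255 in wild type. It rose by 0.86 ± 0.14 over outside-lesion adventitia (adjusted p = 3.86e-04) and by 0.56 ± 0.15 over wild type (adjusted p = 0.0143), both as log2 changes. The rise over wild type was lost without wild-type replicate 3 (0.47, adjusted p = 0.0710, range 0.00800 to 0.0710).

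Acvr1b, a type I receptor for activins, averaged 868 ± 207 in ATLO, against 455 ± 83.2 in outside-lesion adventitia, and rose by 0.92 ± 0.19 on the log2 scale (adjusted p = 0.00289) with no overlap of the arrays. Wild type averaged 647 ± 87.0, and ATLO did not pass against it (log2 change 0.40 ± 0.21, adjusted p = 0.174). All outside-lesion arrays lay below wild type (log2 change -0.52 ± 0.21, adjusted p = 0.172). A dimmer Acvr1b probe set, not tested, read 14.4 to 53.3 in ATLO and 30.8 to 121.5 outside the lesion. Skil, a nuclear repressor of Smad-driven transcription, averaged 1949 ± 344 in ATLO, against 1052 ± 205 in outside-lesion adventitia, and rose by 0.89 ± 0.16 on the log2 scale (adjusted p = 0.00105), again with no overlap. With wild type at 1480 ± 96.0, Skil did not pass in ATLO (log2 change 0.38 ± 0.18, adjusted p = 0.125). Skil was lower on all outside-lesion arrays than in wild type (log2 change -0.51 ± 0.18, adjusted p = 0.124). Its dimmer probe set, also not tested, read 75.0 to 117.5 in ATLO and 4.8 to 48.1 outside the lesion.

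The 4 genes that fell in ATLO against outside-lesion adventitia were Bmp6, Fst, Smad6 and Id1. Bmp6, a BMP ligand, had signals of 103.9, 95.7, 158.7 and 105.3 in ATLO, against 278.0, 557.3, 439.1 and 427.8 outside the lesion and 269.9, 244.0 and 340.3 in wild type. It fell to 0.275 of its outside-lesion level (log2 change -1.86 ± 0.24, adjusted p = 9.05e-05) and to 0.403 of the wild-type level (log2 change -1.31 ± 0.26, adjusted p = 0.00302), with all ATLO arrays below all others. Fst, follistatin, which traps activins and some BMPs, read 48.6, 135.7, 82.0 and 137.8 in ATLO, against 200.4, 780.3, 314.6 and 405.9 outside the lesion and 337.6, 417.7 and 212.1 in wild type. It fell by 2.02 ± 0.42 on the log2 scale against outside-lesion adventitia (adjusted p = 0.00247) and fell by 1.74 ± 0.45 against wild type (adjusted p = 0.0126). The fall against wild type was lost without wild-type replicate 2 (log2 change -1.53, adjusted p = 0.0545) and without the filter (adjusted p = 0.0521), over a range from 0.00298 to 0.0545.

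Id1, a repressor of differentiation genes that BMPs induce, averaged 479 ± 129 in ATLO, 818 ± 106 outside the lesion and 869 ± 74.7 in wild type. It fell by 0.80 ± 0.18 on the log2 scale against outside-lesion adventitia (adjusted p = 0.00494) and by 0.89 ± 0.20 against wild type (adjusted p = 0.00576). Smad6, the inhibitor that preferentially blocks BMP receptors, averaged 152 ± 52.4 in ATLO, 284 ± 70.9 outside the lesion and 344 ± 73.8 in wild type. Its fall passed against wild type (log2 change -1.23 ± 0.30, adjusted p = 0.00968) and against outside-lesion adventitia (log2 change -0.94 ± 0.28, adjusted p = 0.0205). The second passed in 16 of 22 alternatives and was lost without ATLO replicate 2 (-0.69) or outside-lesion replicate 1 (-0.83) or 2 (-0.84), given as log2 changes. Array weights (log2 change -0.61), no filter and the actin ratio as a covariate also removed it. Id2, a relative of Id1, went the other way on its brightest probe set, at 2642 ± 609 in ATLO, 1530 ± 223 outside the lesion and 1267 ± 113 in wild type. Its log2 changes there were 0.77 ± 0.17 (adjusted p = 0.00433) against outside-lesion and 1.03 ± 0.19 (adjusted p = 0.00181) against wild type. Its other 2 tested probe sets gave 0.18 and 0.04 against outside-lesion and -0.10 and 0.38 against wild type, none of them called.

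**Figure D4:**
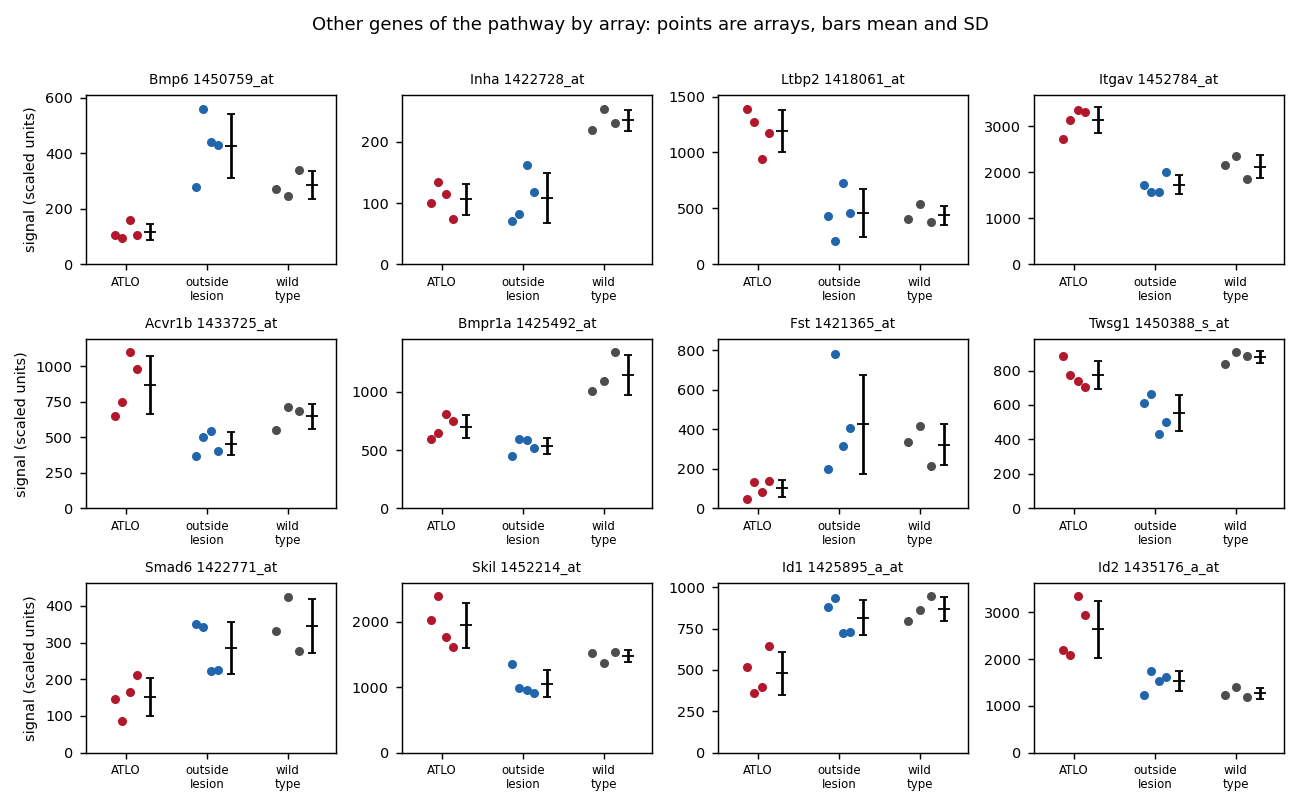
Signal (scaled units, linear axis from 0) on every array of the 12 other pathway genes chosen by their change, in ATLO (red, n = 4), outside-lesion (blue, n = 4) and wild-type (grey, n = 3) adventitia, with mean and SD as bars. Bmp6, Fst, Smad6 and Id1 are lowest in ATLO, and Ltbp2, Itgav, Acvr1b, Skil and Id2 are highest there.

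Against wild type, ATLO had 3 of the 43 other genes higher and 7 lower, with a median log2 change of -0.25 beside -0.05 over all genes, of which 27.7% were called (13.6% higher and 14.1% lower). The 3 higher genes were Ltbp2, Id2 and Itgav. Besides Bmp6, Fst, Smad6 and Id1, the lower genes were Inha, Chrd and Bmpr1a. Inha, the inhibin alpha subunit, read 100.8, 135.0, 114.1 and 74.0 in ATLO, against 220.2, 254.6 and 231.7 in wild type (log2 change -1.18 ± 0.31, adjusted p = 0.0142). Without wild-type replicate 2 Inha did not pass (log2 change -1.13, adjusted p = 0.0528, range 0.00281 to 0.0528). Outside the lesion Inha read 70.9 to 161.8, level with ATLO (ATLO against outside-lesion log2 change 0.01 ± 0.29, adjusted p = 0.988). Those arrays also lay below wild type, without passing (log2 change -1.19 ± 0.31, adjusted p = 0.0562). Chrd, a BMP antagonist outside the naming rule and named after its values were seen, averaged 126 ± 55.7 in ATLO and 249 ± 15.0 in wild type.

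Outside the lesion, 0 of the 43 other genes were higher than in wild type and 2 were lower by limma, where 3.11% of all genes were called (1.42% higher and 1.69% lower) and the medians were -0.28 and -0.11. Bmpr1a, a type I BMP receptor, had signals of 448.5, 593.3, 587.3 and 521.2 outside the lesion, against 1009.1, 1096.2 and 1339.8 in wild type, with ATLO between 597.9 and 813.4. It fell by 1.09 ± 0.17 on the log2 scale outside the lesion (adjusted p = 0.0119) and by 0.71 ± 0.17 in ATLO (adjusted p = 0.00797). Its other 4 tested probe sets also had negative changes outside the lesion, between -0.53 and -0.17, none called. The call outside the lesion was lost without wild-type replicate 2 (-1.12, adjusted p = 0.0591) or 3 (-0.98, adjusted p = 0.0617), over a range from 0.00301 to 0.0617. Twsg1, which modulates BMP binding to Chrd, averaged 552 ± 105 outside the lesion and 877 ± 34.9 in wild type (log2 change -0.69 ± 0.17, adjusted p = 0.0446) and passed in 6 of 22 alternatives (log2 change between -0.78 and -0.51). In this comparison, where Bmp4, 1 probe set of Tgfbi, Bmpr1a and Twsg1 fell, 2 of 6 fibroblast markers also fell, and no other marker list had a call. They were Lum, a matrix proteoglycan, and Pdgfra, a growth factor receptor, both named after their values were seen. Lum averaged 1248 ± 502 outside the lesion and 2697 ± 522 in wild type (log2 change -1.20, adjusted p = 0.0482). Pdgfra averaged 1055 ± 366 outside the lesion and 2511 ± 657 in wild type (log2 change -1.28, adjusted p = 0.0275). The rest of the list was not called, with log2 changes of -0.17 for Dcn, -0.32 for Col1a2, -0.10 for Col3a1 and 0.03 for Col1a1 (adjusted p between 0.631 and 0.981). The part of fibroblast markers in the falls of the pathway genes was not tested. The count of 2 other pathway genes was 0 without wild-type replicate 2 or 3, 1 without wild-type replicate 1, ATLO replicate 1, 3 or 4 or outside-lesion replicate 1 or 4, and 3 without ATLO replicate 2 or outside-lesion replicate 2. In ATLO Twsg1 rose over outside-lesion adventitia by 0.50 ± 0.16 (adjusted p = 0.0249) on this probe set, with -0.00 on its other tested one. That call held in 16 of 22 alternatives (adjusted p between 0.00980 and 0.165) and was lost without ATLO replicate 1 (0.44) or outside-lesion replicate 3 (0.39) or 4 (0.46), under quantile normalization (0.38) and under equal array medians (0.38), given as log2 changes.

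These are bulk samples, in which fewer cells of a type and less RNA per cell cannot be told apart, and markers of several cell types moved with the groups. All 5 measured T cell and all 5 measured B cell markers rose in ATLO over outside-lesion adventitia. The T cell sum was 3097 to 6092 in ATLO and 402 to 661 outside the lesion, and 459 to 1153 in wild type. The B cell sum was 8538 to 19839 in ATLO, 664 to 1669 outside the lesion and 482 to 5817 in wild type. Wild-type replicate 2 held the top of both the T cell and the B cell wild-type range. The B cell sums of wild-type replicates 1 and 3 were 791 and 482. Of 6 macrophage markers 5 rose, with a sum of 26157 to 42477 in ATLO, 10512 to 17132 outside the lesion and 12156 to 15682 in wild type. Of 6 fibroblast markers 5 rose, summing to 48054 to 91542 in ATLO, 24745 to 66873 outside the lesion and 44378 to 49228 in wild type. All 5 plasma cell markers rose, with a sum of 30687 to 76359 in ATLO, 12968 to 18444 outside the lesion and 10985 to 21208 in wild type. The highest wild-type plasma cell sum was also in replicate 2. In the other direction, 4 of 5 adipocyte markers fell, with a sum of 23432 to 68468 in ATLO, 106384 to 181651 outside the lesion and 56215 to 80939 in wild type. Of 5 endothelial markers 3 fell, with a sum of 1618 to 2517 in ATLO, 2996 to 4529 outside the lesion and 2602 to 3322 in wild type. Smooth muscle markers had 1 of 6 lower in ATLO than outside the lesion and 4 of 6 lower than in wild type, summing to 10896 to 29665 in ATLO, 18559 to 57445 outside the lesion and 38490 to 42556 in wild type. Of 4 mast cell markers 2 fell in ATLO against each other group, with a sum of 908 to 2502 in ATLO, 2034 to 3463 outside the lesion and 2792 to 3462 in wild type. Of 2 Schwann cell markers 1 fell in ATLO against outside-lesion adventitia, with a sum of 496 to 772 in ATLO, 586 to 1853 outside the lesion and 889 to 1106 in wild type, and of 4 neuron markers 0 were called by limma in any comparison, at sums of 876 to 3500 in ATLO, 272 to 4958 outside the lesion and 586 to 11476 in wild type. Against wild type, ATLO had 5 of 5 T cell, 4 of 5 B cell, 5 of 5 plasma cell, 5 of 6 macrophage and 3 of 6 fibroblast markers higher, and 2 of 5 adipocyte and 2 of 5 endothelial markers lower. The highest neuron sum, 11476, was in wild-type replicate 1, where wild-type replicates 2 and 3 had 586 and 1921. No marker of these lists was at the floor on all arrays, and their part in the changes above was not tested.

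The actin 3' to 5' ratio, which rises as RNA degrades, ran from 1.71 to 8.14 in ATLO, from 6.22 to 12.0 outside the lesion and from 4.19 to 5.40 in wild type. With it as a covariate, the receptor changes in ATLO against outside-lesion adventitia were 0.91 for Tgfbr1 (adjusted p = 0.00259, range over alternatives 5.33e-05 to 0.00259) and 0.78 for Tgfbr2 (adjusted p = 0.0126, range 0.00123 to 0.0200), both as log2 changes. Ltbp1 was then not called (log2 change 0.89, adjusted p = 0.113), nor were Smad6 (-0.68, adjusted p = 0.218), Id1 (-0.77, adjusted p = 0.0501) and Twsg1 (0.44, adjusted p = 0.165). Over their alternatives the adjusted p of Smad6 ranged from 0.0109 to 0.218 and that of Id1 from 0.00150 to 0.0501.

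**Figure D5:**
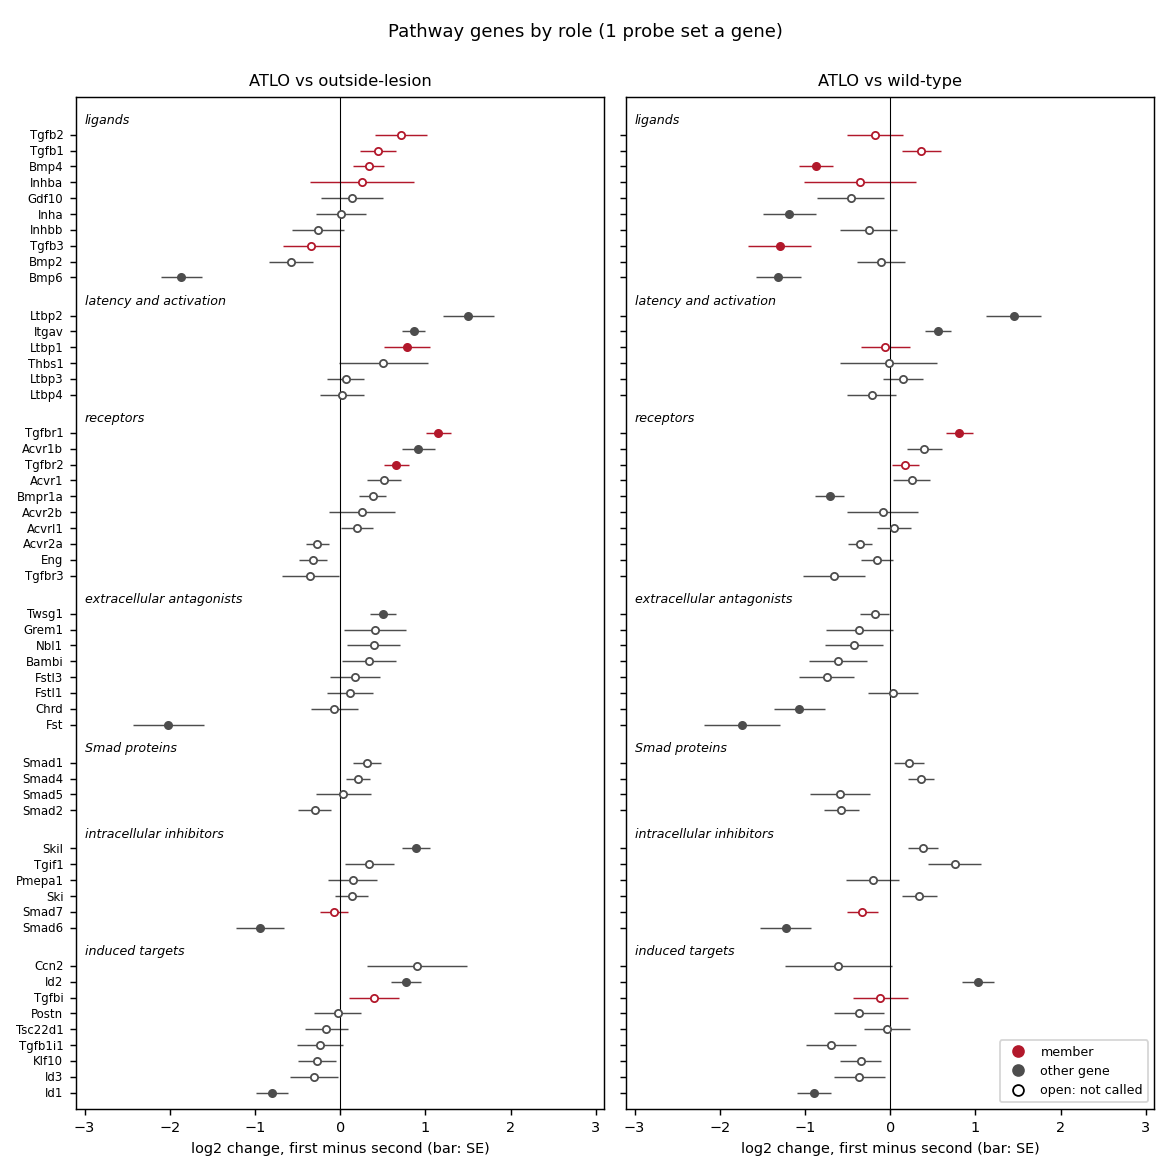
Log2 change (x axis, standard error as bars) of the 53 pathway genes with a tested probe set, by role, in ATLO against outside-lesion (left) and ATLO against wild type (right), with members in red and filled points called. In the left panel the filled receptor and latency genes are all to the right of 0, and Bmp6, Fst, Smad6 and Id1 are to the left.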

How the data were processed

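The deposited data are signal intensities on a linear scale, 1 per probe set and array, for which the submitters' processing notes name GCOS 1.4. The 2% trimmed means, near 500.2 on every array, show that the authors' values had been scaled. The sources used here do not say how probes were summarised. Of 22690 probe sets 64 controls were left out, and 20380 of the remaining 22626 had 1 gene symbol in the platform annotation. Signals under 35.1, the 20th percentile, were set to it before log2, which understates folds of dim probe sets. Testing was limited to the 14988 probe sets that exceeded the 40th percentile of an array on 3 or more arrays. Group means over the 11 arrays were modelled in limma (version 3.58.1, R 4.3.3), letting the variance follow intensity, with Benjamini-Hochberg adjustment and a threshold of 0.05. The fit was checked on simulated data.

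Members, lists and tests were chosen with earlier results of these data known. All members were named, as were up to 4 rising and 4 falling called list genes per comparison, those with the biggest changes. Alternatives changed the scaling (quantile or equal medians), floor, filter, groups fitted and variance trend, added a block for replicate number, array weights or the actin ratio, averaged the probe sets of a gene, or left out 1 array. The number of arrays limits the precision.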

Additional observations from a re-analysis of the deposited data

Results flagged for a closer look

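In 2 of 62 groups of 4 arrays examined, over the 19 member probe sets and 12 other pathway genes, 1 array stood apart from the others by Dixon's criterion, which chance alone would flag in about 1 in 20 groups. Bmp6 read 158.7 in ATLO replicate 3, where the other ATLO arrays lay between 95.7 and 105.3. Skil read 1356.2 in outside-lesion replicate 1, where the others lay between 911.4 and 985.3. Neither array was set aside, and no member was flagged.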

How the results depend on the processing

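Calls of Tgfbr1 and Tgfbr2 in ATLO against outside-lesion, and of Tgfbr1 and Bmp4 in ATLO against wild type, held in 22 of 22 alternatives. Of the 15 tested member probe sets, 3 were called in ATLO against outside-lesion, a count of 2 to 6 when each array was left out and of 2 to 5 under the other settings, with 5 under array weights. In ATLO against wild type the count was 3, with 2 to 3 when each array was left out and 2 to 4 under the other settings. Outside-lesion against wild type was the least steady. Its 2 member calls became 1 under equal array medians, no filter, the replicate block, no intensity trend, the actin covariate and only the compared groups, 5 with array weights, and 0 to 3 with each array left out. Its 2 calls among other pathway genes became 1 under quantile normalization and averaged probe sets and under the same settings, 9 with array weights, and 0 to 3 with each array left out. The cause was not tested. Among the other pathway genes, 10 were called in ATLO against outside-lesion, with 9 to 10 when each array was left out and 7 to 12 under the other settings. In ATLO against wild type 10 were called, with 7 to 11 and 9 to 14.

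Titles give groups the same replicate numbers. Same-numbered ATLO and outside-lesion arrays deviated together with correlations from 0.0397 to 0.153, and differently numbered ones with correlations from -0.198 to 0.152. Whether a shared number stands for a shared animal or batch cannot be told from these values. With the replicate block, 4744 of 14988 probe sets were called in that comparison and 189 in outside-lesion against wild type, where the fit without it called 4777 and 489, and 4 of 8 ATLO and outside-lesion arrays correlated best with their own number. Against wild type, same-numbered arrays ran from 0.00496 to 0.273 for ATLO (5 of 6 best with their own number) and from -0.178 to 0.121 for outside-lesion arrays (3 of 6).

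Only uncalled changes turned sign, as log2 changes. In ATLO against outside-lesion, Inhba was -0.131 with the actin covariate, -0.0556 without ATLO replicate 1 and -0.197 without outside-lesion replicate 4, and Smad7 0.0257 with array weights and 0.00908 without ATLO replicate 1. In ATLO against wild type, Inhba was 0.161 without ATLO replicate 3, Ltbp1 0.0606 and 0.0219 without ATLO replicate 2 and wild-type replicate 2, and Tgfbi 1456250_x_at 0.00190 with the replicate block and 0.0185 without ATLO replicate 2. In outside-lesion against wild type, Tgfb1 was 0.117 under quantile normalization, 0.0933 under equal medians and 0.0221 without outside-lesion replicate 1, and Tgfbi 1437463_x_at 0.0368 under equal medians and 0.0118 without outside-lesion replicate 3. With each array left out, these changes ran over -0.197 to 0.775 and -0.973 to 0.161 (Inhba), over -0.178 to 0.00908 (Smad7), over -0.193 to 0.0606 (Ltbp1), over -0.228 to 0.0185 (Tgfbi 1456250_x_at), over -0.192 to 0.0221 (Tgfb1) and over -0.362 to 0.0118 (Tgfbi 1437463_x_at).

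Equal array medians moved the median log2 change of all probe sets from 0.102 to -0.0147 in ATLO against outside-lesion, with 44.1% in place of 56.3% of calls higher, and from -0.114 to 0.0585 in outside-lesion against wild type, with 87.3% in place of 52.8%. Under quantile normalization that share was 67.9%. With the actin covariate 2552 probe sets were called in ATLO against outside-lesion in place of 4777. In outside-lesion against wild type, where 489 were called, other settings gave 21 to 1530.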
